A study of Drosophila melanogaster with 3 samples.

Results

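No peak of the authors' reproducible list lay in, or within 5 kb of, any of 10 gap and pair-rule segmentation genes in embryos that carried GFP-tagged Dad. The genes were taken from a list of names: the gap genes hb, Kr, kni and gt, the terminal gap genes tll and hkb, and the pair-rule genes run, odd, opa and hry (the annotation's symbol for hairy). They are 10 of the 13945 protein-coding genes on the 6 chromosome arms. A region was counted for a gene when its summit, the position of highest signal, lay in the gene or at most 5 kb from it. By that rule the genes held 0 of the 3392 optimal peaks, 34 of the 30000 regions called on the pooled alignments, and 32, 41 and 30 of the 30000 regions of replicates 1, 2 and 3.

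The embryos were of Drosophila melanogaster, of both sexes pooled and 0 to 24 h old. They came from a single transgenic line that stably expresses Dad with GFP at its C terminus, so the protein recovered is the tagged one. Dad is the inhibitory Smad of the Dpp (BMP) pathway. Chromatin sheared by sonication to 200 to 800 bp was immunoprecipitated with an antibody against GFP in 3 biological replicates, which form 1 group. There was thus no contrast between groups to test, and no test over the 10 genes was made. The counts stand beside the same counts over all protein-coding genes, and the replicates give the error. Read depth is unknown, because the files hold regions and signals but no counts, and the labels name no batch.

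Segmentation of the fly embryo runs through a cascade of transcription factors. Maternal gradients turn on the gap genes in broad domains along the body axis, the gap proteins position the stripes of the pair-rule genes, and these in turn set the segment polarity genes. The terminal gap genes tll and hkb answer to Torso signalling at both poles of the embryo. Most of this transcription falls in the early embryo, and several of the genes are used again in the nervous system and other tissues. The proteins are not of 1 family. Those of hb, Kr, hkb, odd and opa bind DNA through classical zinc fingers and those of kni and tll through the zinc fingers of nuclear receptors, whereas gt encodes a bZIP protein, run a Runt-domain protein and hry a bHLH repressor.

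The sequences at 6 of the 34 pooled regions are shown because the results below turn on them. They are the strongest regions of hry, odd, opa and hkb, the next of hry, and a kni region that matched 4 different motifs. Each is 201 bp long, centred on the summit, taken from the RefSeq genome sequence of build dm6. Capitals mark any match to 1 of 13 short motifs on either strand: the Mad GC site GCCGNCGC, the Smad GC box GGCGCC, the Smad palindrome GTCTAGAC, the Brinker site GGCGCT, Zelda CAGGTA, the motif of GAGA factor, GAGAGA, the DRE TATCGATA, Bicoid TAATCC, Caudal TTTATG, Hunchback TTTTTTT, Pho GCCATT, the E box CACGTG and the TATA box, TATAAA. The Smad GC box and the Brinker site differ only in their last letter, and overlapping matches were kept.
hry upstream, chr3L:8672600-8672800, plus strand: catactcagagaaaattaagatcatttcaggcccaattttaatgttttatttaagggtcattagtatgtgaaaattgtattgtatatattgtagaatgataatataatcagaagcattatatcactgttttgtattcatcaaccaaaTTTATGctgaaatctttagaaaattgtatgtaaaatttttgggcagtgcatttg
odd downstream, chr2L:3600960-3601160, plus strand: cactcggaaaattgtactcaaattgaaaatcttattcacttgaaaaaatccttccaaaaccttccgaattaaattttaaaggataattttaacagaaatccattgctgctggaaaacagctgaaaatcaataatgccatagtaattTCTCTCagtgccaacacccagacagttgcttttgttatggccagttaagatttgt
hry downstream, chr3L:8683996-8684196, plus strand: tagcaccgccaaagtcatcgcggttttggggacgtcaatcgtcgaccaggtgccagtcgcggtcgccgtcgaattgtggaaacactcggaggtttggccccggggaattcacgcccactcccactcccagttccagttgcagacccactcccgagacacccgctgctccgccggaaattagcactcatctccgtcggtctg
opa promoter, chr3R:4852605-4852805, plus strand: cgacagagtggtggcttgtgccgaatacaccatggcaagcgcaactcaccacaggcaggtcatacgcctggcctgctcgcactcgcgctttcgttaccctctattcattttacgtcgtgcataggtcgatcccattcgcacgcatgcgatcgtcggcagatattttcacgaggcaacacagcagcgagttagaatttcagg
hkb coding sequence, chr3R:4346015-4346215, plus strand: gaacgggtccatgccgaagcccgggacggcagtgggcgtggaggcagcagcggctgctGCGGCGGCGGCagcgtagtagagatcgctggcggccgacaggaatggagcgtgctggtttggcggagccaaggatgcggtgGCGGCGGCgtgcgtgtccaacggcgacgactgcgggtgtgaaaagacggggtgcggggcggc
kni intron, chr3L:20694560-20694760, plus strand: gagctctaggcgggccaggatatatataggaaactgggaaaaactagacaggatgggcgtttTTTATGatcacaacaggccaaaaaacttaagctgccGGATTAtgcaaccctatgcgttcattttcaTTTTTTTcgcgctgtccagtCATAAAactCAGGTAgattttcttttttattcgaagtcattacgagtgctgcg

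These windows differed in composition. The hry upstream window was AT-rich, with a GC content of 26.4%, and its only match was Caudal (written TTTATG). The odd downstream window was at 33.3% and its only match was GAGA, read as TCTCTC on the printed strand. The hkb window lay in coding sequence at 71.1% and held 3 matches to the Mad GC site on the minus strand, of which the first 2 overlap. The kni window held 2 Caudal matches and 1 each to Bicoid, Hunchback and Zelda, and these factors act early in the embryo, whereas the opa promoter and hry downstream windows held none. A match is a description of the letters and not a binding site.

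The absence of an optimal peak is read against a high background. Of all protein-coding genes, 6052 (43.4%) had an optimal peak in the gene or within 5 kb, against 0 of the 10 (Wilson 95% interval 0 to 27.8%, counting error only). The 10 were chosen with earlier results of these data known, so the interval is not a test against that share. Longer genes hold more peaks. The share was 34.7% for genes spanning under 2 kb, where gt and hkb fall, and 47.3% for those of 2 to 5 kb, where Kr, kni, tll, odd and hry fall. It was 55.2% for genes over 5 kb, to which hb, run and opa belong. At promoters the background was lower, since 18.4% of coding genes had an optimal peak within 500 bp of a transcription start site (TSS), again against 0 of the 10. In chromatin of whole embryos of mixed age, recovery in few cells and weak recovery in many cannot be told apart.

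Weaker regions were present at most of the genes. The pooled list holds background as well as peaks by its listing, so a region in it need not be a peak. A deposited −log10 q of at least 2 was reached by 5952 of its 30000 regions. Among the regions at the 10 genes, only the strongest of hry (3.20) and of odd (3.09) reached it. A pooled region lay in or near 9 of the 10, where 87.0% of coding genes had one, and only gt had none. Within 500 bp of a TSS it was 7 of the 10, against 55.8% of coding genes. The 34 regions amounted to 2.27 per 10 kb of the 150.1 kb searched, against 2.24 per 10 kb of all 30000 on the arms. None of the 34 was at an optimal peak, and the 25850 pooled regions without one amounted to 1.93 per 10 kb. The windows of coding genes held more, with a median of 3.39 per 10 kb, regions at optimal peaks included. Of the 10 genes, 9 lay below that median, from 0 at gt to 3.07 at kni, and hry alone lay above it at 6.67. Their signal, the authors' value for a region, ran from 22.2 to 73.1 with a median of 28.8. For the 25850 pooled regions without an optimal peak the median was 31.2, and the optimal peaks start at 80.7. This value describes and ranks regions within 1 list. Overlap with an optimal peak was found for 13.8% of all pooled regions and for 0 of these 34, which nearly follows from the absence of optimal peaks in the windows. By rank, 2 of the 34 were among the first 5000 of the 30000 pooled regions, 7 among the first 10000 and 19 among the first 20000. The optimal peaks, of which the windows held none, take the first ranks, so low counts there are partly fixed.

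**Figure D1:**
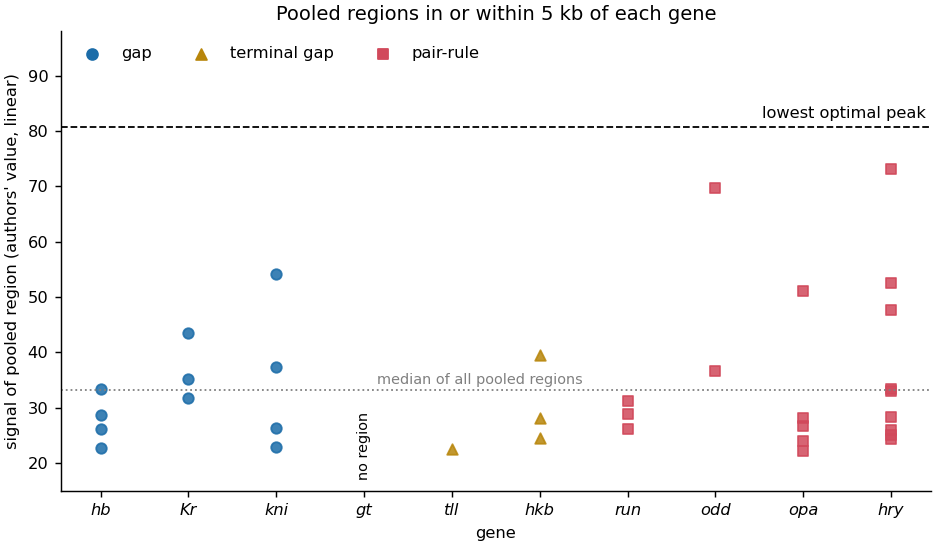
Signal of each pooled region (vertical axis, the authors' linear value) in or within 5 kb of each gene (horizontal axis); each point is 1 region, and shape and colour give the role. All 34 regions lie below the lowest optimal peak at 80.7 (dashed), as do all pooled regions without an optimal peak. Those of hry (73.1) and odd (69.6) come nearest, and gt has no region.

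Among the gap genes the strongest pooled region had a signal of 33.4 at hb, 43.5 at Kr and 54.1 at kni. Distances to a gene's TSS are to the nearest of its annotated starts. For hb (3R, 8690980 to 8697822, FBgn0001180), the zinc finger factor of the anterior embryo, 4 pooled regions had signals of 22.6 to 33.4. The strongest (8697265 to 8697674) lay in its 5′ UTR, 352 bp downstream of a TSS. To compare replicates, signal was divided by the median that the replicate shows at optimal peaks, so that 1 is the level of an ordinary peak. On this relative scale the region measured 0.334, 0.326 and 0.321 in replicates 1, 2 and 3 (0.327 ± 0.00656, SD, n = 3). It was the most even of the 10 regions found in all 3 replicates.

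At Kr (2R, 25226611 to 25231394, FBgn0001325), which acts in the central domain, 3 pooled regions had signals of 31.8 to 43.5. The strongest lay 6751 bp downstream of the Kr TSS, in an intron of the neighbouring gene CG9380. It measured 0.387, 0.346 and 0.272, a mean of 0.335 ± 0.0583 (SD, n = 3). Those at the Kr promoter and in its coding sequence were found in 1 and 2 replicates. The nearest optimal peak was 59170 bp away, farther than for 90.7% of coding genes and the longest distance among the 10.

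Higher values were seen at kni (3L, 20692330 to 20695378, FBgn0001320), a repressor of the posterior domain related to nuclear receptors. Of its 4 pooled regions the strongest (20692723 to 20693132, rank 6400) lay in coding sequence. It measured 0.465, 0.342 and 0.591, a mean of 0.466 ± 0.125 (SD, n = 3), highest in replicate 3. The intronic region whose sequence is printed lay 104 bp upstream of the start of a shorter transcript, had a signal of 37.3 and was found in replicates 1 and 3. A region at the kni 5′ end came from replicate 2 alone.

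The bZIP repressor gene gt (X, 2427113 to 2428967, FBgn0001150) had the fewest regions. No pooled region was listed there, and the only replicate region was 1 in the coding sequence in replicate 2 (2427712 to 2428115, signal 11.2, rank 16907). With no pooled region, gt shared the lowest percentile of the coding genes, 6.52.

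The terminal gap genes were low too. For tll (3R, 30852315 to 30854400, FBgn0003720), an orphan nuclear receptor gene, the single pooled region (30857361 to 30857770, signal 22.4, rank 29280) was overlapped by a region of no replicate. Replicate 1 had 1 region in the tll coding sequence, replicate 2 had 2 between genes and replicate 3 had none, and none of these overlapped. At hkb (3R, 4345015 to 4346646, FBgn0261434), a zinc finger gene that bounds the germ layers at the poles, 3 pooled regions had signals of 24.4 to 39.5. The strongest, in coding sequence, measured 0.516 in replicate 1 and 0.511 in replicate 3 and was not listed in replicate 2. The hkb region 701 bp upstream of the TSS was in all 3 replicates, at 0.300 ± 0.0530 (SD, n = 3).

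Pair-rule genes held 19 of the 34 pooled regions, or 2.72 per 10 kb, against 1.95 for the 4 gap genes and 1.69 for the 2 terminal ones. Of these 19, hry alone held 9. At run (X, 20690670 to 20697321, FBgn0003300), the Runt-domain founder gene, 3 pooled regions had signals of 26.2 to 31.2. The strongest lay 3836 bp upstream, in an exon of the noncoding gene lncRNA:CR43862, at 0.362 and 0.303 in replicates 1 and 2. It was absent from the list of replicate 3, where the strongest run region was in coding sequence.

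The strongest region of odd, a zinc finger gene that marks alternate stripes and later the joints of the leg, lay 5696 bp downstream of its TSS (2L, 3600855 to 3601264; the gene, FBgn0002985, spans 3604224 to 3606756). It had a signal of 69.6 and rank 4334 in the pooled list. Its relative signal in the replicates was 0.581, 0.535 and 0.850, a mean of 0.655 ± 0.170 (SD, n = 3), and its ranks were 5828, 8377 and 3000. It was thus highest in replicate 3. The other odd region, at the promoter (signal 36.7), measured 0.290, 0.887 and 0.329 in replicates 1, 2 and 3 (0.502 ± 0.334, SD, n = 3). It was high in replicate 2 only, with a coefficient of variation of 66.5%.

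At opa (3R, 4852813 to 4869979, FBgn0003002), the Zic-family gene that times the later pair-rule pattern, the strongest of 5 pooled regions lay 108 bp upstream of the TSS (4852500 to 4852909, signal 51.1, rank 7051). It measured 0.734 in replicate 2 and 0.491 in replicate 3 and was not listed in replicate 1. The other opa regions had signals of 22.2 to 28.1, and 3 of these 4 lay in coding sequence. An optimal peak of low signal (4846752 to 4847161, 82.8, rank 3251 of 3392) lay 5856 bp upstream of opa, just outside the limit of 5 kb.

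The most regions were found at hry (3L, 8675759 to 8679253, FBgn0001168), which encodes a repressor that works with Groucho. Its 9 pooled regions made a density that 11.9% of coding genes matched or passed, and the replicates gave 7.16 ± 2.60 per 10 kb (SD, n = 3). The strongest (8672495 to 8672904, signal 73.1, rank 3980) lay 3059 bp upstream of the TSS, between genes. Its relative signal was 0.470, 1.19 and 0.587 in replicates 1, 2 and 3 (0.749 ± 0.386, SD, n = 3), at ranks 9455, 1657 and 5368. Replicates 1 and 2 each had a pair of overlapping regions there, and the higher was taken. The lower of each pair, with its summit nearer to that of the pooled region, measured 0.284 (rank 28413) and 1.01 (rank 2353). Replicate 2 was thus the only one in which the hry upstream region passed the level of an ordinary peak. With 90.5% of the lowest optimal signal it was the nearest of the 34 regions to that limit, and 533 pooled regions that overlapped no optimal peak had more.

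Further regions at hry were high in other replicates. The one 8141 bp downstream of the TSS (8683891 to 8684300, signal 52.5) measured 0.829 in replicate 1, where it ranked 2891, and 0.703 in replicate 2, and it was not listed in replicate 3. The region 245 bp upstream of the TSS (8675309 to 8675718) had a pooled signal of only 25.0. In replicate 3 the region overlapping it measured 0.830 and ranked 3093, against 0.487 in replicate 2. Replicate 1 had a pair of overlapping regions, 1 at 0.518 that reached the pooled region only at its edge, with its summit 632 bp upstream, and 1 at 0.277 with its summit 389 bp upstream. A region in hry coding sequence (signal 47.7) measured 0.629, 0.471 and 0.217. Each replicate therefore had its highest hry value at a different place: downstream in replicate 1, far upstream in replicate 2 and at the promoter in replicate 3.

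**Figure D2:**
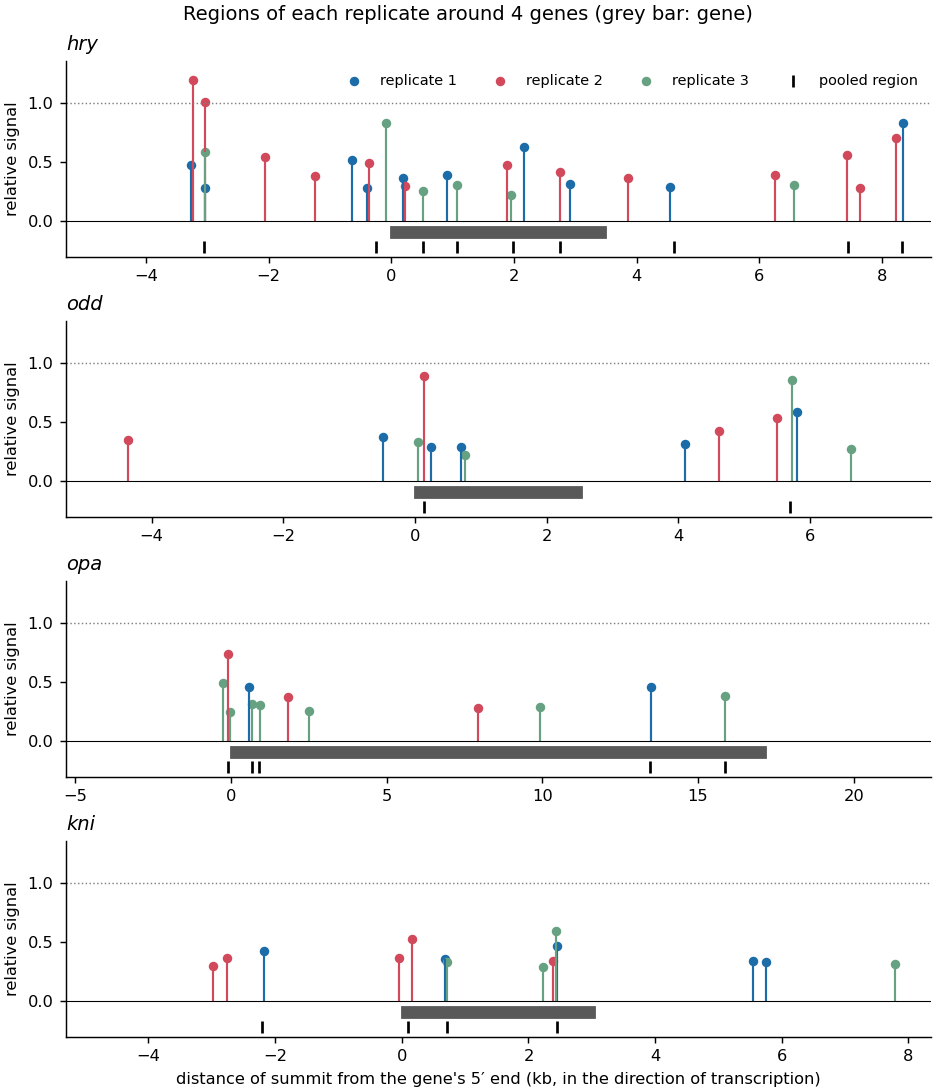
Regions of replicates 1 (blue), 2 (red) and 3 (green) around hry, odd, opa and kni, by distance of the summit from the 5′ end of the gene in kb (horizontal axis) and by signal divided by the replicate's median over the optimal peaks (vertical axis, 1 is dotted). Black ticks are pooled regions, grey bars the genes. The highest hry value falls at a different place in each replicate, and only hry in replicate 2 passes 1.

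A strongest region common to all replicates was found at none of the genes. Regions were found in all 3 replicates at 8 of them, all but gt and tll. In 0 of these 8 did the strongest region of each replicate overlap in all 3 pairs, where it did in 43.0% of all coding genes with regions in all 3 replicates and in 14.2% of those without an optimal peak. In 4 of the 8 (hb, Kr, run and hry) the strongest regions overlapped in no pair, against 19.8% and 37.5%. In kni, hkb, odd and opa 1 pair overlapped. The genes without an optimal peak are the nearer background, and 4 of 8 is close to it.

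The optimal list has 3392 peaks, so the 3392 regions of highest signal were taken from each replicate as its top regions. Among them the genes held 1 region in replicate 1, 3 in replicate 2 and 2 in replicate 3. All 6 lay at hry or odd. A top region in all 3 replicates was found for 1 of the 10 (hry), against 31.6% of coding genes, and in at least 1 replicate for 2 of the 10, against 54.0%. For coding genes without an optimal peak these shares were 0.469% (37 of 7893 genes) and 19.0%. So hry is among 37 genes that held a top region in every replicate and no optimal peak, and its top regions lay at different places. The count of 1 rested on the settings: within 2 kb it was 0 (21.29% of coding genes), and without replicate 1 it was 2 (odd and hry, against 34.65%).

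The overlap between replicates at the 34 pooled regions was like that of other weak regions. A region of replicate 1 overlapped 25 of the 34 by at least 1 bp, one of replicate 2 overlapped 21 and one of replicate 3 overlapped 21. For the 25850 pooled regions without an optimal peak the shares were 66.3%, 64.4% and 68.2%. All 3 replicates overlapped 10 of the 34, against 31.6%, and none overlapped 1, against 3.25%. Of pooled regions at optimal peaks, 99.2% were overlapped in all 3. The number of regions at the genes was 34.3 ± 5.86 in a replicate (SD, n = 3), and their median relative signal 0.348 ± 0.0404 (SD, n = 3).

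Ranked by the strongest region in their window, the 10 genes stood below the middle of all coding genes and near the middle of those without a peak. In the pooled list the first of these largely restates the lack of an optimal peak. The 43.4% of coding genes with such a peak have a signal of at least 80.7 and stand above all 10. The percentiles of the 10 in the pooled list ran from 6.52 (gt) to 52.5 (hry), with a median of 31.0, and only odd (50.1) and hry passed 50. In replicates 1, 2 and 3 the median was 29.8, 33.6 and 36.9, a mean of 33.4 ± 3.60 (SD, n = 3). Within their length classes the median was 26.1. Among the 7893 coding genes without an optimal peak, it was 54.8, with hry at 92.8 and odd at 88.6 near the top and gt at 11.5 and tll at 23.8 near the bottom. Averaged over the replicates, hry was highest at 65.0 ± 8.65 (SD, n = 3), followed by odd at 54.5 ± 10.4, opa at 39.8 ± 10.8 and kni at 37.1 ± 8.29 (SD, n = 3 each). The remaining 6 lay from 10.6 ± 10.02 (gt) to 31.0 ± 12.3 (hkb). The SDs of 8.10 to 12.3 exceed most gaps between neighbours in this order, and only wide gaps, such as that between hry and gt, were larger than the spread.

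**Figure D3:**
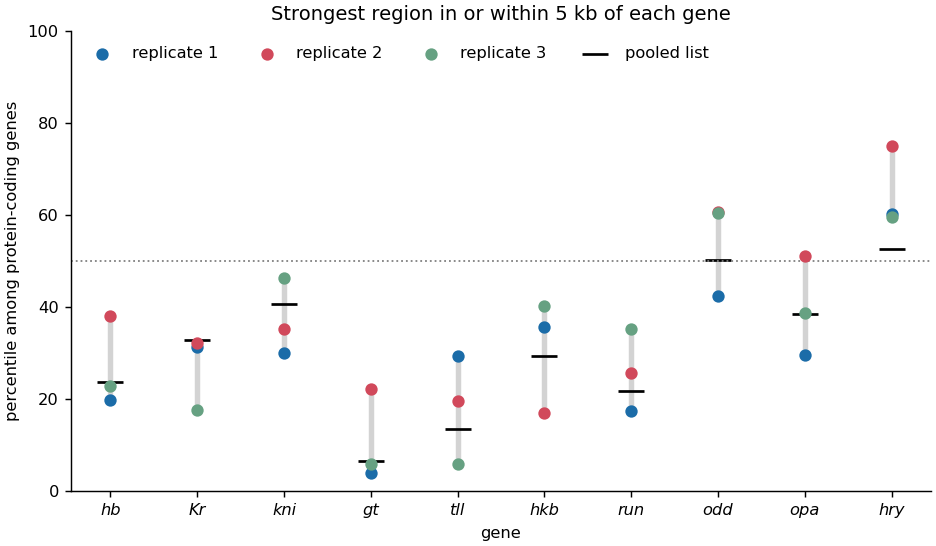
Percentile of the strongest region in or within 5 kb of each gene among all 13945 protein-coding genes (vertical axis), for replicates 1 to 3 (points, joined by a grey bar), and for the pooled list (black dash). hry lies above 50, while gt and tll stay below 30 in every replicate.

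The nearest optimal peak was 16780 bp from the gene in the median of the 10, against 7156 bp over all coding genes. With no peak within 5 kb, all 10 distances could only exceed 5 kb, whereas 43.4% of coding genes had a peak within that limit. The median over the coding genes without a peak was not computed. Of the 10, the peak was nearest for odd (5549 bp, signal 97.4, downstream) and opa (5856 bp), both just past 5 kb, and next for hkb (10878 bp). The nearest TSS to the peak was the gene's own for odd, opa and hry and that of another gene for the remaining 7. The peak nearest hkb lay 66 bp from the TSS of CG9776, and that nearest hb lay 98 bp from Unc50. For gt, tll and run the distances were 39827, 33518 and 35541 bp, and for hry, which had the most weak regions, 17371 bp.

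By location, 14 of the 34 summits were intergenic, 10 in coding sequence, 4 in introns, 4 in 5′ UTRs, 1 in a 3′ UTR and 1 in a noncoding exon. Intergenic sequence made up 58.4% of the windows searched and coding sequence 10.03%, so coding sequence held 6.64 regions per 10 kb against 1.60 between genes. On the whole arms these densities were 3.02 and 1.77, counting all pooled regions. Those include regions at optimal peaks, which the 34 do not, and 42.1% of optimal peaks are intergenic against 0.531% in coding sequence. The densities of the genes and the arms are therefore not of like sets. Introns held 11.8% of the 34 and 38.2% of the other pooled regions without an optimal peak, and made up 22.6% of the windows against 42.6% of the arms. The median GC content around the 34 summits was 51.5%, against 46.3% for pooled regions without an optimal peak and 37.8% at optimal peaks. It was 62.9% for the 10 in coding sequence and 49.2% for the other 24, where pooled regions without an optimal peak had 56.7% and 42.8%. The windows as a whole had 43.2% GC, near the 42.1% of the arms.

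Motif matches within 100 bp of the 34 summits were about as frequent as in other weak regions. The Mad GC site was found in 1 of 34 (2.94%, Wilson 95% interval 0.521 to 14.9), where 4.78% of pooled regions without an optimal peak and 1.68% of optimal peaks held it. The Brinker site was found in 3 (8.82%, 3.05 to 23.0; others 9.23%, optimal 6.57%), and Zelda in 1 (2.94%, others 4.92%, optimal 4.16%). Caudal was found in 5 (14.7%, others 16.1%, optimal 20.1%), GAGA in 4 (11.8%, others 8.79%, optimal 10.8%), Pho in 4 (11.8%, others 14.1%, optimal 9.35%) and Bicoid in 2 (5.88%, others 5.59%, optimal 6.04%). The TATA box was found in 3 (8.82%, others 17.7%, optimal 28.0%) and Hunchback in 2 (5.88%, others 13.9%, optimal 21.4%), where the windows held more GC than others, and the part of GC in this was not tested. Within 250 bp of the summit the Hunchback share was no longer lower, at 32.4% against 31.0% in the others. No match was found to the Smad GC box, the Smad palindrome, the DRE or the E box (0 of 34, interval 0 to 10.2%), which 5.25%, 0.0890%, 1.49% and 2.85% of the other regions held. For each of the 13 motifs the interval of the 34 windows held the share of the other weak regions. For the TATA box (3.05 to 23.0) and, within 100 bp, Hunchback (1.63 to 19.1) it lay below the share at optimal peaks.

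Optimal peaks by the same rule were present at other genes, taken from 6 lists. These hold maternal, head gap, pair-rule and segment polarity genes, and also relatives of the 10 genes and early activators and corepressors, which are not all segmentation genes. Of the 49 genes, 26 (53.1%, Wilson 95% interval 39.4 to 66.3) had one, against 43.4% of coding genes and 0 of the 10. For 11 of these 26 the strongest peak lay nearer to the TSS of another gene. Many of the 49 genes span over 5 kb, a class in which 55.2% of coding genes had a peak, and the lists were not matched for length. The maternal list had the largest share, 10 of 11 (90.9%, 62.3 to 98.4). It was led by exu, which acts in bicoid RNA localisation and whose peak lay in an intron of Fem-1 (signal 300.3), and by nanos (223.7), nearest to the TSS of CG42359. Peaks were also listed for osk (140.8), cad (96.9), trk (84.3), tsl (122.3), swa (182.5), stau (107.5) and pum (139.9), and for osk, cad, trk and swa another gene's TSS was nearer. The anterior determinant bcd had its own promoter peak (162.2, 1.49 ± 0.240 relative signal, SD, n = 3).

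Among early activators and corepressors, 5 of 6 had a peak (83.3%, 43.6 to 97.0). The highest were Trl, which encodes GAGA factor (645.1, relative signal 5.62 ± 2.11, SD, n = 3), and gro, the corepressor that Hairy recruits (414.7, 3.56 ± 0.539, SD, n = 3). The gene of the early activator Zelda, zld, had a peak of 85.7 that lay 57 bp from the TSS of CG12702. Stat92E (102.3) and CtBP (101.6) had peaks at ranks 2281 and 2311 of 3392. All 3 replicates held the Trl and gro peaks among their top regions.

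Of 6 pair-rule genes of the homeobox and forkhead type and their cofactor, 3 had a peak (interval 18.8 to 81.2%), namely slp1 (94.1), slp2 (394.4) and ftz-f1 (111.6), while eve, ftz and prd, named here after their values were seen, had none. Head gap genes also had 3 of 6, oc (196.6), cnc (122.2) and slp1, and segment polarity genes 3 of 10 (30.0%, 10.8 to 60.3), ptc (113.9), nkd (119.8) and smo (138.2). The ptc peak lay in an intron of Acsl, and the smo peak lay 138 bp from the TSS of CG3625. Close relatives of the 10 genes had 3 of 11 (27.3%, 9.75 to 56.6). These were the odd relatives sob (140.5, nearest to the TSS of CG43815) and bowl (209.9, at its own promoter) and the tll relative dsf (197.1, in the 5′ UTR of Gpdh1). These lists hold few genes, most of their intervals overlap, and no order between them was tested.

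**Figure D4:**
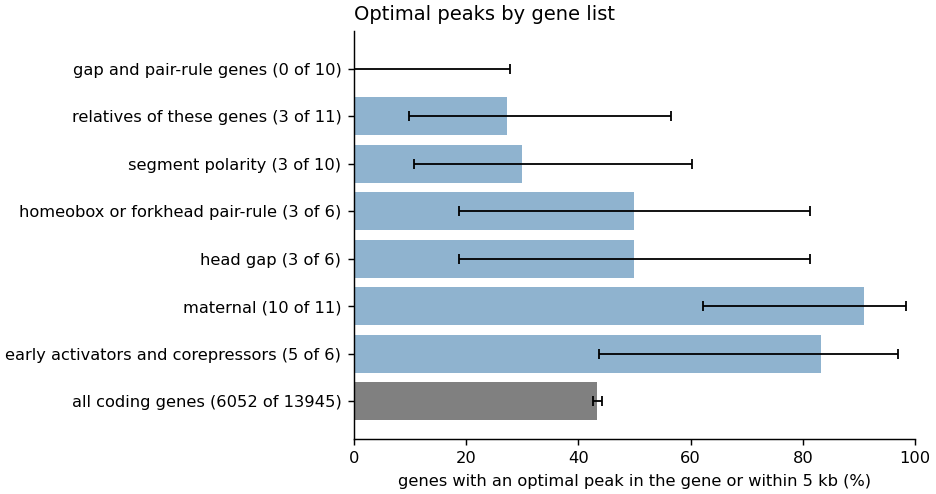
Share of genes with an optimal peak in the gene or within 5 kb (horizontal axis, %) for the 10 gap and pair-rule genes (0 of 10), 6 other gene lists and all coding genes (43.4%); whiskers are Wilson 95% intervals. The maternal list (90.9%) and the activators and corepressors (83.3%) have the largest shares.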

How the data were processed

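Peak lists in narrowPeak form on build dm6 were used. Per the file listings, regions were called on each replicate alignment and on the pooled alignments against a control, and an optimal list was kept at an irreproducible discovery rate (IDR) threshold. The pooled list is described there as peaks and background, the input for IDR. The labels and listings name neither aligner nor caller, versions or threshold. Control reads were not analysed here. The deposited signal has no scaling across libraries. It was therefore ranked within a list, or divided by a replicate's median over its regions that overlap optimal peaks. The deposited −log10 q values reach a ceiling and were not ranked. Lists of build dm3 were not used.

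Regions were joined in Python 3.11.15 (pandas 2.3.3, scipy 1.17.1) to Ensembl release 115 (BDGP6.54), without pseudogenes and transposable elements, and to the RefSeq genome. A summit in several features was assigned to a 5′ UTR first, then to coding sequence, a 3′ UTR, any other exon and last an intron. Percentiles count genes with no region as lowest, and split ties evenly. Counting was checked on simulated regions. No test compares the genes with others. The genes, lists and motifs were chosen with earlier results of these data known. Named are all 10 genes and each listed gene with an optimal peak; neighbours were named after their values were seen. The zinc-finger pattern planned as a check of the proteins was not run, since no protein table was used here. The symbol nos was matched to nanos. Alternatives were windows of 2 and 10 kb, any overlap, the stronger 1696 peaks, other numbers of top regions, other divisors, motif windows of 50 and 250 bp, and leaving out each replicate.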

Additional observations from a re-analysis of the deposited data

How the results depend on the processing

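The count of 0 of 10 genes with an optimal peak could only stay 0 within 2 kb and with the stronger 1696 peaks. Both are parts of the main setting, and 31.29% and 26.55% of coding genes had a peak there. The count was also 0 with any overlap (44.02% of coding genes) and without each replicate in turn (range 0 to 0, against 32.35% to 34.42%). In the latter, the top regions shared by the remaining replicates stood in for the optimal list. Within 10 kb the count was 2 (odd and opa), where 57.0% of coding genes had a peak. The count of 1 gene with a top region in all replicates was 0 with 1696 top regions (18.38% of coding genes) and within 2 kb (21.29%). It was 2 (odd and hry) with 6784 top regions (48.54%) and within 10 kb (44.59%). Leaving out 1 replicate gave 1 to 2, with 2 without replicate 1, against 34.65% to 36.1% of coding genes. The 34 pooled regions became 25 within 2 kb and 55 within 10 kb. Their density was 2.775 per 10 kb within 2 kb and 2.20 within 10 kb, against 2.27 in the main setting. The median percentile of 31.0 was 26.1 within length classes, 40.2 within 2 kb and 22.7 within 10 kb. With each gene's percentile first averaged over the replicates, the median over the genes was 29.0, and 30.2 to 30.4 without 1 replicate. This is not the mean of the replicates' medians given above. The median relative signal of the strongest pooled regions, 0.466 over the 5 genes found in all replicates, was 1.29 when divided by the median of the whole list. Without 1 replicate it was 0.385 to 0.539, each time over 6 genes, so the set of genes changed as well. Of 26 motif shares in other windows, 18 lay within the interval of the main share. Shares grow with the width of the window, so this count does not compare the 34 regions with other weak ones. The TATA box within 250 bp is among the 18, at 11.8% against 38.2% of pooled regions without an optimal peak. No paired analysis was possible because all samples form 1 group. Depth is unknown, so whether deeper libraries would lift hry or odd into the optimal list was not tested.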

Other observations

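The TATA box and Hunchback letters were also searched in wider windows. Within 250 bp of the summit TATAAA was found at 11.8% of the 34 regions, against 38.2% of pooled regions without an optimal peak. The Hunchback letters, also made only of A and T, were found at 32.4% against 31.0%. The cause of the difference between these motifs was not tested.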
